A study of Rattus norvegicus with 6 samples.

Results

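Circular RNAs (circRNAs) that were at the same time abundant and even from animal to animal were examined in the rat thalamus. A circRNA is a closed transcript made when a downstream splice donor is joined back to an upstream splice acceptor. It has no free end for exonucleases to attack, is long-lived for that reason, and many brain genes give rise to one or more, often of synaptic or chromatin proteins. It is told apart from its linear counterpart only by reads across the back-splice junction, and the deposited read counts per circRNA are taken here as counts of such reads, although the counting itself is not described in the sources used here. Counts were scaled to reads per 1000000 circRNA reads of the same library (RPM). A circRNA was a member of the stable set if it had reads in all 6 libraries, a mean of at least 100 RPM and a coefficient of variation (CV, the sample SD over the mean of the 6 RPM) of at most 0.30. The set held 1094 of 32445 circRNAs (3.37%). Since the counts of all 6 animals chose the members, their levels, their spread and their difference between the groups are descriptions without a test.

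The 6 rats formed 2 groups. In 3 rats, both temporomandibular joints received 50 µL of CFA (complete Freund's adjuvant, an emulsion used to keep a joint inflamed), and in the other 3 rats they received 50 µL of saline. Injections were repeated 2 times per week in both groups, and the thalamus, the relay of orofacial sensation to the cortex, was taken after 14 days. Every animal was injected, so the set does not describe an untouched rat. The labels used here give no strain, sex or age. The files pair circRNAs with positions but not with genes, so the tissue was not checked against thalamic marker genes. Nor do the sources used here name the genome build behind the positions. Libraries held 573696 to 1176178 circRNA reads, which left a median of 135 to 271.5 reads per member and library and at least 34 reads for every member in every library.

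The back-splice junctions of 10 members are shown because the junction is what sets a circle apart from its linear transcript: the 5 members of highest mean RPM first, then the 5 of lowest CV. Each is 58 nt long, 5′ to 3′ in the sense direction, as deposited. The first 29 nt are the end of the circle and the last 29 nt its beginning, and the capitals mark the 6 nt on either side of the back-splice.
novel_circ_0047434: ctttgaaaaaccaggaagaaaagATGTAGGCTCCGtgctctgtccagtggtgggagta
novel_circ_0040899: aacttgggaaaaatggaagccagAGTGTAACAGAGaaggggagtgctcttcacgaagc
novel_circ_0019207: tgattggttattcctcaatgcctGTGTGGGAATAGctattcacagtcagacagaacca
novel_circ_0000371: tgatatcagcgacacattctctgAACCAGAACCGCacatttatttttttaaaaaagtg
novel_circ_0012760: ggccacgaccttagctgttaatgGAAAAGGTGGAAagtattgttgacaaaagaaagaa
novel_circ_0028952: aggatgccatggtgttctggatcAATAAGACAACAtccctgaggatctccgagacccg
novel_circ_0000742: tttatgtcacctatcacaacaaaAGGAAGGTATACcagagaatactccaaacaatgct
novel_circ_0005630: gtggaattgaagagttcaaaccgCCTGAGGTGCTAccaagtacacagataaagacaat
novel_circ_0015613: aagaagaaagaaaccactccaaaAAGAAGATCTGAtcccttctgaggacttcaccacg
novel_circ_0023294: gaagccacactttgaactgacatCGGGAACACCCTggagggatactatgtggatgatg
In each of the 32445 circRNAs the junction joined the end of the deposited circle to its beginning.

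Members carried about as many reads as all other circRNAs together. Their share was 49.9%, 49.4% and 50.3% of circRNA reads in the CFA libraries and 51.2%, 50.7% and 49.8% in the saline libraries, so the groups overlapped. The median member had 228 RPM, against 4.28 RPM over all circRNAs, and the set reached up to 14217 RPM. The 10 leading members held 6.52% of all circRNA reads and the 100 leading members 22.0%. Evenness went with level: of the 1705 circRNAs with a mean of at least 100 RPM, 53.3% of those below 150 RPM were members, against 81.9% of those at 800 RPM or more. The median CV was 0.289 in the first of these classes and 0.187 in the second. Counting error is larger at low levels and enters the CV, and its part in this gradient was not tested. Of the 611 abundant circRNAs outside the set, 564 had reads in all 6 libraries and a CV above 0.30, and 47 had no reads in at least 1 library.

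**Figure D1:**
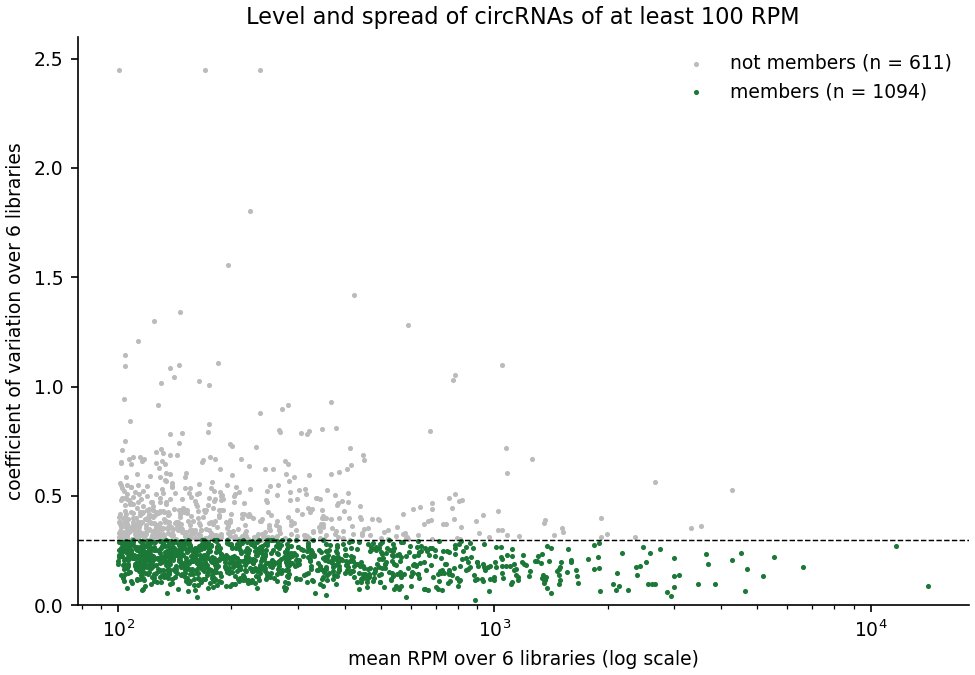
Each point is a circRNA with a mean of at least 100 RPM over the 6 libraries; the x axis gives that mean in RPM on a log scale, the y axis the CV over the 6 libraries, and the dashed line marks the CV limit of 0.30. The 1094 members (green) lie below the line by construction, and the 611 others (grey) thin out toward high means.

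Of the 10 most abundant circRNAs of the thalamus 9 were members. The leading member, novel_circ_0047434, is a 1345 nt circle from chr9:94463647-94481167, plus strand. It had 13966, 14079 and 12911 RPM in the CFA libraries and 16225, 15093 and 13027 RPM in the saline libraries. Its CV was 0.0890, and the 2 highest values were both from saline rats, while the third saline value lay inside the CFA range. The next, novel_circ_0040899, 531 nt from chr7:30727478-30735182, plus strand, had 13861, 9561 and 9688 RPM in the CFA libraries and 9252, 10508 and 17185 RPM in the saline libraries. Its CV of 0.273 came mostly from saline replicate 3 and CFA replicate 1, which stood above the other 4. Its neighbour novel_circ_0040892, an 855 nt circle that ends at the same position and begins at 30714506, had 5649, 3995 and 4126 RPM in the CFA libraries and 3807, 3404 and 6072 RPM in the saline libraries. The same 2 libraries were the highest in both circles.

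The other leading members differed in how they spread. The 1016 nt novel_circ_0019207 (chr1:204959173-204961691, plus strand) had 5559, 5365 and 7986 RPM in the CFA libraries and 7479.6, 7430.0 and 5751 RPM in the saline libraries, a CV of 0.176. The 1411 nt novel_circ_0000371 (chr10:16724062-16730140, minus strand) ranged from CFA replicate 2 to CFA replicate 3, with 5664, 3734 and 7497 RPM in the CFA libraries and 5738, 5409 and 5144 RPM in the saline libraries. The 658 nt novel_circ_0012760 (chr17:29730437-29731094, minus strand) is as long as its genomic span, that is, 1 unspliced segment, and had 6029.6, 4515 and 4536 RPM in the CFA libraries and 4658, 5517 and 5833 RPM in the saline libraries. Values of both groups lay intermixed in these 3. The tightest of the 10 was novel_circ_0040481, 434 nt from chr7:138002505-138021168, minus strand, with 4651, 4394 and 4555 RPM in the CFA libraries and 4468, 4445 and 5218 RPM in the saline libraries and a CV of 0.0662. The 617 nt novel_circ_0011230 (chr16:23555919-23600154, plus strand) had 4473, 5953 and 5076 RPM in the CFA libraries and 4305, 4748 and 3634 RPM in the saline libraries. The 375 nt novel_circ_0022940 (chr2:116586880-116591616, plus strand) had 4252, 4389 and 2961 RPM in the CFA libraries and 5677, 3919 and 4520.0 RPM in the saline libraries, and the 761 nt novel_circ_0048603 (chrX:63177769-63195572, minus strand) had 3646, 3691 and 4218 RPM in the CFA libraries and 4135, 4219 and 3288 RPM in the saline libraries. In none of the 10 did the 3 CFA values stand apart from the 3 saline values. The 1 circRNA of the leading 10 outside the set was novel_circ_0024921, 537 nt from chr2:22950023-22964734, plus strand, with 4543, 8121 and 3222 RPM in the CFA libraries and 2428, 2067 and 5312 RPM in the saline libraries and a CV of 0.526.

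The most even members were not the most abundant ones. The lowest CV of the set, 0.0249, belonged to novel_circ_0028952, a 425 nt circle from chr3:3413579-3414759, minus strand, with 899, 893 and 908 RPM in the CFA libraries and 869.8, 901 and 850.4 RPM in the saline libraries. The library to library spread was smaller there than the 0.0384 that counting alone gives at this depth. The 506 nt novel_circ_0000742 (chr10:37764317-37764822, plus strand), an unspliced segment alone at its locus, had 609, 566 and 567 RPM in the CFA libraries and 573, 607 and 565 RPM in the saline libraries, a CV of 0.0361. The 794 nt novel_circ_0005630 (chr13:110837569-110856315, minus strand) had 163, 159.6 and 157 RPM in the CFA libraries and 160.4, 173 and 158 RPM in the saline libraries, a CV of 0.0369 at a counting CV of 0.0897. The most abundant of these 5, novel_circ_0015613, is a 630 nt unspliced segment from chr18:75429814-75430443, minus strand and had 2949, 2905 and 2899 RPM in the CFA libraries and 3162, 2795 and 2984 RPM in the saline libraries, a CV of 0.0415. For novel_circ_0023294 (chr2:140592437-140597578, minus strand) the values were 349, 365 and 386 RPM in the CFA libraries and 352, 338 and 353 RPM in the saline libraries, a CV of 0.0471. In 4 of these 5 the variance between libraries was below that of counting, and in novel_circ_0015613 it was 3.89 times as large. Over the set it was below that of counting in 17 of 1094 members.

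**Figure D2:**
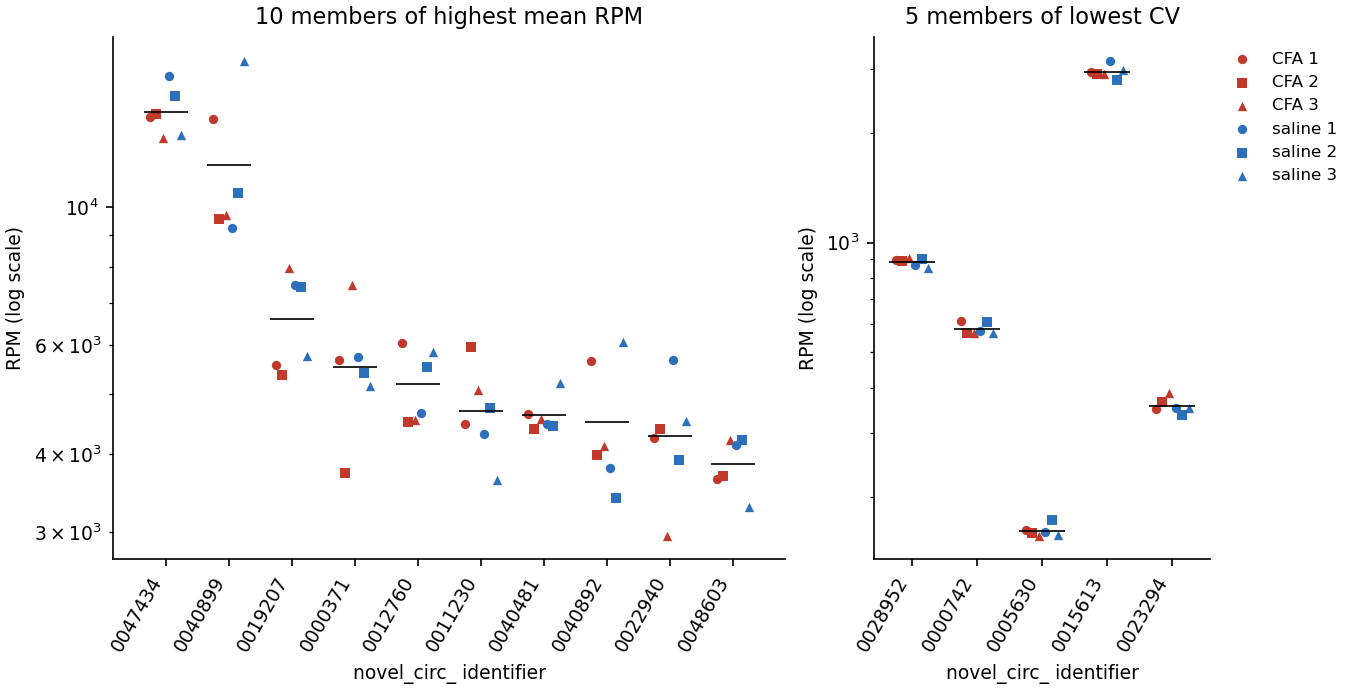
RPM (log scale) of the 10 members of highest mean RPM (left) and the 5 members of lowest CV (right) in each library; red marks CFA and blue saline, the symbol gives the replicate, and the bar is the mean of the 6. The 6 symbols nearly coincide on the right, and the red and blue symbols intermix in each column.

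Over the whole set the median CV was 0.20 (quartiles 0.152 and 0.246), against a median counting CV of 0.0756. The variance between libraries was a median of 7.29 times that of counting, and 23.3 times in the 611 abundant circRNAs outside the set, which the rule chose for a larger spread. Members therefore still differed between libraries by more than counting error in most cases. The highest library exceeded the lowest by a median of 1.69-fold and by at most 2.90-fold, and by less than 1.5-fold in 278 members. No single library set the extremes: the highest value lay in CFA replicate 1 for 111 members and in CFA replicate 2 for 221, with the other 4 libraries between these, and the lowest value lay in saline replicate 1 for 146 and in saline replicate 3 for 223. Just inside the CV limit were novel_circ_0038441 and novel_circ_0019311. The values of the first were 224, 347 and 159 RPM in the CFA libraries and 179.5, 315 and 264 RPM in the saline libraries. Just outside were novel_circ_0047362 and novel_circ_0044706. The first of these had 158, 328 and 171.6 RPM in the CFA libraries and 178, 203 and 252 RPM in the saline libraries. At the limit on the mean, novel_circ_0023872 and novel_circ_0015266 were inside with 100.04 and 100.13 RPM, and novel_circ_0044602 and novel_circ_0043766, which met the other criteria, were outside with 99.8 and 99.1 RPM.

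An animal that took no part in the choice gave a check that the rule does not fix. Members were chosen again from 5 libraries, with the same limits, and read in the sixth. With CFA replicates 1, 2 and 3 left out, 82.8%, 67.1% and 77.3% of the chosen circRNAs lay within 30% of the mean of the other 5 libraries. With saline replicates 1, 2 and 3 left out the shares were 75%, 72.7% and 73.2%. For circRNAs of at least 100 RPM with reads in all 5 but a CV above 0.30 there, the shares were 49.1% to 65.4%, lower in 6 of 6 libraries. The 6 choices share animals, so no test was made over them. The gap was there at each level: between 100 and 200 RPM 70.0% of values against 54.8% lay within 30%, and from 800 RPM upward 85.6% against 46.5%. A circRNA chosen as stable was at times listed at 0 in the sixth library, 0 to 4 times per library among 1069 to 1170 chosen. Of the circRNAs chosen on 5 libraries, 88.8% to 94.5% were members on all 6. The same 5 libraries enter both choices, so this last share is no check.

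**Figure D3:**
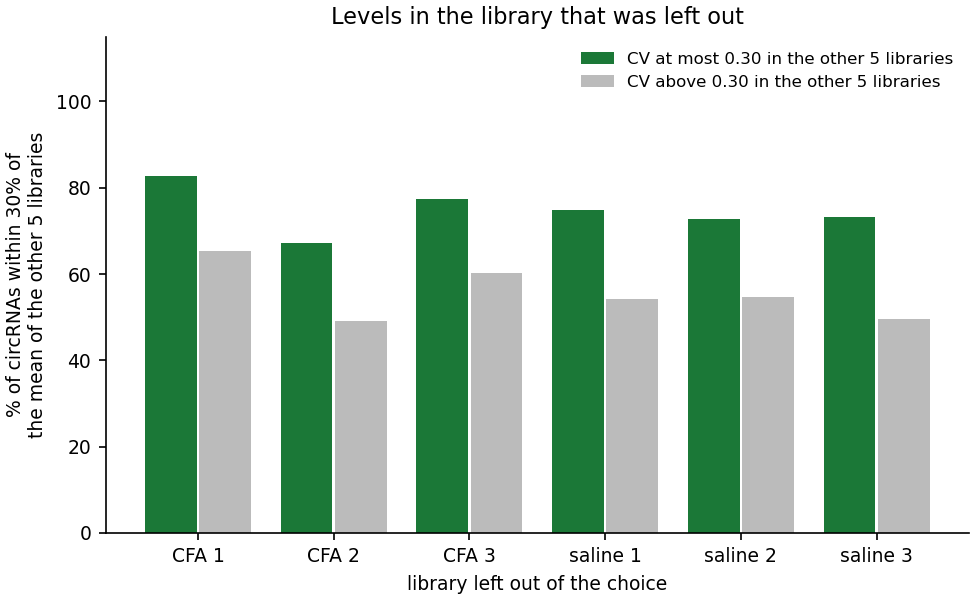
For each library on the x axis, bars give the share (%) of circRNAs whose RPM there lay within 30% of the mean of the other 5 libraries, for circRNAs with a CV of at most 0.30 (green) or above 0.30 (grey) in those 5, all of at least 100 RPM there. The green bar is the higher one in 6 of 6 libraries.

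Evenness also carried from one group of rats to the other. Of 1087 circRNAs that met the limits in the 3 saline libraries alone, 74.8% had a CV of at most 0.30 in the CFA libraries, against 52.9% of the 590 with reads in all 3 and at least 100 RPM but a larger CV. Their median level in CFA was 0.967 times that in saline, and 90.6% lay within 30%, against a median of 0.976 times and 83.4% for the 590. In the other direction, of 1137 circRNAs chosen in the CFA libraries alone 70.3% had a CV of at most 0.30 in saline, against 46.5% of 565, and 89.9% against 81.4% lay within 30% of their CFA level. Here, too, the values were read in animals that had no part in the choice, and no test was made over circRNAs, which share libraries. The sets compared here were not matched for level, with which evenness went, and the part of level was not tested.

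Members lay at loci that make many circles. Circles whose spans overlap on 1 strand are counted here as 1 locus. The 1094 members came from 794 of 9563 loci, and 188 of these loci held 2 or more members, 488 members in all. A median of 9 circRNAs was found at a member's locus, against 6 over all circRNAs and 8 for the abundant circRNAs outside the set. The member was the leading circRNA of its locus in 750 cases (68.6%), close to the 69.1% outside the set, and was alone there in 51 cases. At least 1 end was shared with another circRNA in 1025 members (93.7%), against 90.7% of the abundant circRNAs outside the set and 78.4% of all circRNAs. These features go with abundance, which the rule used.

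The rule set no limit on the other circRNAs of these loci, except that a neighbour of at least 100 RPM is one that failed it. Summed over the circRNAs of a member locus that are no members, they had a mean of at least 100 RPM at 370 loci, with a median CV of 0.240 (quartiles 0.184 and 0.312). At loci with an abundant circRNA but no member, the sum of the remaining circRNAs, each below 100 RPM, reached 100 RPM at 106 loci, with a median CV of 0.302 (0.202 and 0.416). With neighbours of at least 100 RPM each left out at the member loci as well, an alternative chosen after the data were seen, 320 member loci had a median CV of 0.216. The median sum was 228 RPM at the 370 member loci, 185 RPM at the 320, and 175 RPM at the loci without a member. Within a locus, the neighbours' sum and the members' sum moved in the same direction over the 6 libraries more often than not: the correlation of their log2 RPM had a median of 0.39 over 369 loci and was above 0 at 269. Such a correlation rests on 6 libraries that are shared by all loci, and is given as a description.

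Pairs of members from the same locus moved together where they shared an end. Over the 6 libraries, the correlation of log2 RPM had a median of 0.44 in 295 such pairs, of 0.20 in 216 pairs of the same locus without a common end, and of 0.00 in 597360 pairs from different loci. The quartiles were wide, 0.05 and 0.71 for pairs with a common end. The highest value fell in the same library in 32.9%, 21.3% and 17.2% of these pairs. Circles with a common end share exon sequence and libraries, so these values describe the loci and are not independent of each other.

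The locus with most members, 12 of its 33 circRNAs, was chr5:167455211-167615430, plus strand. The members held 90.8% of the reads of the locus, and their sum was 9574, 9708 and 9567 RPM in the CFA libraries and 9437, 10838 and 10052 RPM in the saline libraries. Their 6 starts and 6 ends were combined in several ways: 4 members began at 167516581, 3 at 167486001, 4 ended at 167558250 and 4 at 167581074. The 4 that begin at 167516581 are shown because their junctions differ on the donor side alone. The circles themselves also differ in length. The capitals mark the 29 nt of the common acceptor side, and the lower case the exon end that was joined to it.
novel_circ_0035024: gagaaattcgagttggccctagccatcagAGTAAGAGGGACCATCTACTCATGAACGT
novel_circ_0035025: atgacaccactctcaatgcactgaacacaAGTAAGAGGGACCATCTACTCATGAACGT
novel_circ_0035026: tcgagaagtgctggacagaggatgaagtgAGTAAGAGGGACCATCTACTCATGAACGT
novel_circ_0035027: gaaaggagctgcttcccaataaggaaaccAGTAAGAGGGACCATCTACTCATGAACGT
The 582 nt circle of the second line had 2262, 2076 and 2198 RPM in the CFA libraries and 2250.3, 2551 and 2264 RPM in the saline libraries, and the 681 nt circle of the third line 2129, 1822 and 2179 RPM in the CFA libraries and 2177, 2216 and 2099 RPM in the saline libraries. Their means of 2267 and 2104 RPM were close, each at a CV of 0.0689 or 0.0685, and both were lowest in CFA replicate 2. In 2 lesser members of the locus, novel_circ_0035031 and novel_circ_0035034, each CFA value lay below each saline value, as in 3.42% of all circRNAs tested. The rule used the same values, so nothing is read from this. The first had 219, 201 and 203 RPM in the CFA libraries and 289, 287 and 269 RPM in the saline libraries. The circle with the nearest donor (483 nt) had a mean of 759 RPM and that with the farthest donor (762 nt, over 98850 nt of genome) 629.9 RPM.

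**Figure D4:**
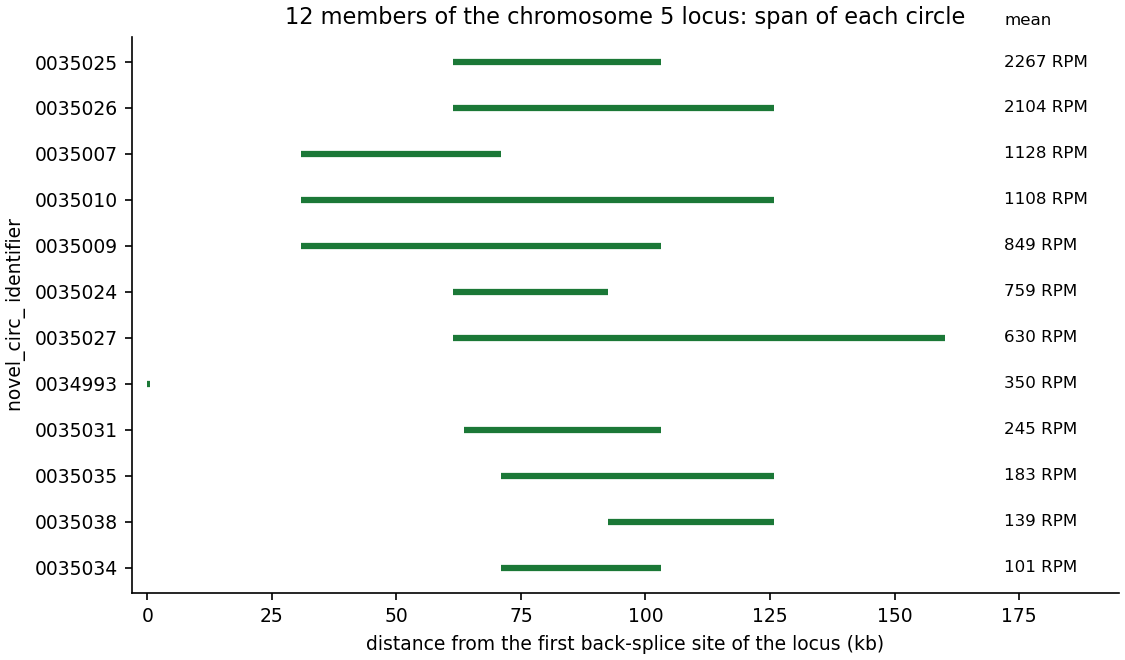
Each bar spans from the first to the last base of 1 of the 12 members of the chromosome 5 locus, on an axis of distance in kb from the first back-splice site of the locus, ordered by mean RPM (printed at the right). Most bars share their left or right end with others, and the members with the highest means, 2267 and 2104 RPM, share the left end.

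The 2 next richest loci were also read member by member. At chr1:278580846-278773472, plus strand, 8 of 27 circRNAs were members, with a sum of 5658, 4713 and 4695 RPM after CFA and 4652, 3570.0 and 4633 RPM after saline. Saline replicate 2 gave the lowest value in 4 of the 8 members. The leading one, novel_circ_0020599 (632 nt), had 1413, 1261 and 1052 RPM in the CFA libraries and 973, 683 and 1115 RPM in the saline libraries, and the 473 nt novel_circ_0020646 had 985, 869 and 749 RPM in the CFA libraries and 826, 868 and 1021 RPM in the saline libraries. At chr3:54410080-54566332, minus strand, 6 of 17 circRNAs were members. All 6 were highest in CFA replicate 3, and 4 were lowest in saline replicate 3. The sums were 9039, 6278 and 10572 RPM after CFA and 7685, 6978 and 5728 RPM after saline. Its leading circle, novel_circ_0029353 (446 nt, chr3:54547246-54566332), had 4267, 2802 and 4999.8 RPM in the CFA libraries and 3586, 3414 and 2824 RPM in the saline libraries. The 908 nt novel_circ_0029339, which ends at the same position, had 2137, 1419.5 and 2620.0 RPM in the CFA libraries and 1931, 1687 and 1220.0 RPM in the saline libraries, in the same order of the 2 highest libraries. In 2 of the 6, novel_circ_0029333 and novel_circ_0029337, each CFA value lay above each saline value, as in 3.21% of all circRNAs tested, and in the other 4 the groups overlapped. Circles of 1 locus share libraries, and nothing is read from this count. Of the 3 loci with 6 members, this one had the highest summed RPM.

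Members were about as long as the other abundant circRNAs and longer than the bulk. Their spliced length had a median of 554 nt (quartiles 432 and 716), the other abundant circRNAs one of 532 nt, and all circRNAs one of 384 nt. The shortest member had 159 nt and the longest 2691 nt. The share of members was lowest among short circles: of abundant circRNAs below 250 nt 10 of 23 were members, and from 250 to 300 nt 10 of 24, against 66.7% from 350 to 400 nt and 64.1% at 1000 nt or more. The median level of abundant circles was 173 RPM below 250 nt, 174 RPM from 250 to 300 nt and 167 RPM from 300 to 350 nt. It was 184 to 219 RPM in the classes from 350 to 1000 nt and 335 RPM at 1000 nt or more. The part of level was not tested. The genomic span had a median of 12217 nt in members, 12906 nt outside the set and 11167 nt over all. Members made up 52.6% of abundant circRNAs with a span under 2000 nt, 72.1% of those from 5000 to 10000 nt and 50.7% of those of 50000 nt or more.

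**Figure D5:**
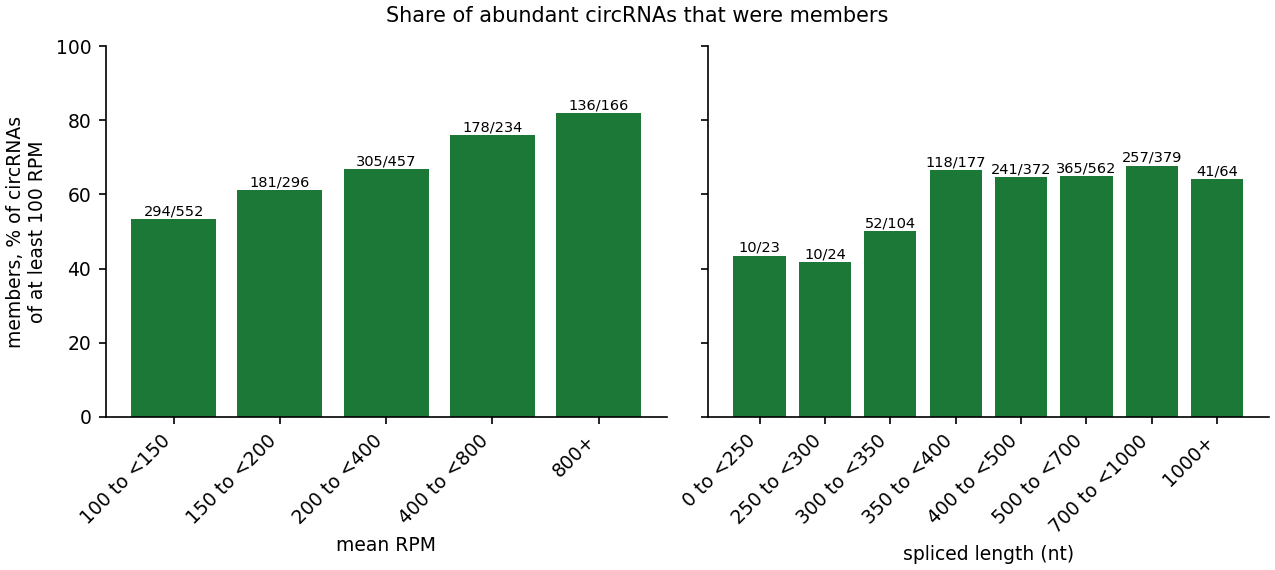
Bars give the members as a percentage of all circRNAs of at least 100 RPM, by mean RPM (left) and by spliced length in nt (right), with members over all abundant circRNAs printed above each bar. The share climbs from 53.3% to 81.9% with the mean and is lowest below 300 nt of length.

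Unspliced segments, whose circle is as long as its genomic span, were 49 of the 1094 members (4.48%), 58 of the 611 abundant circRNAs outside the set (9.49%) and 770 of all (2.37%). They were 20 of the 47 abundant circRNAs that had no reads in some library. Base composition differed little: the median GC content was 47.0% in members, 48.2% in the other abundant circRNAs and 47.7% over all. Per the labels' protocols RNA was bound to poly-T beads, which select poly(A) tails that circles lack. A run of 8 or more A was present in 1.74% of members, 0.982% of the other abundant circRNAs and 1.23% of all. Adenine made up a median of 28.7%, 28.1% and 28.4% of their bases. The part of this step in which circles appear abundant was not tested. The circle length was a multiple of 3 in 34.9% of members and 34.6% of all. A reading frame without a stop all the way round the circle was found in 220 members (20.1%), against 17.2% of the other abundant circRNAs and 18.8% of all. Such a frame can follow from coding exons and does not show translation. The shape is seen in full in the most abundant spliced member of at most 300 nt that has such a frame, a 177 nt circle (chr9:1442054-1446134, plus strand) with 253 RPM on average and a CV of 0.181. The capitals mark its first and last 6 nt, which the back-splice joins.
novel_circ_0045792: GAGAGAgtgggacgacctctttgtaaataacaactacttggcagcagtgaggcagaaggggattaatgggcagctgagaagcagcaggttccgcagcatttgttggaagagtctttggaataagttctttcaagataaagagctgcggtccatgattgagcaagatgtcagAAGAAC
Of the members, 8 share the central 30 nt of the junction with another circRNA, so their reads could have been counted for either, and 5 have a second record in the sequence file with an end moved by a few bases, of which the first was used.

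Some members could be tied to genes through sequence. The RefSeq table for rat (GRCr8) gives the first 50 transcribed bases of each gene, and 36 members held a stretch of at least 30 of these bases that matched 1 named gene alone. They fell on 28 genes, and the chromosome of the gene was that of the circle for 36 of 36. The share, 3.29% of members, is set against 4.75% of the other abundant circRNAs and 1.51% of all. The match finds only circles that hold the start of an annotated transcript, so most hosts go unnamed, and it is shared sequence, which does not say which transcript was circularised. The match was chosen after the files were seen, and so were the genes described here, for their levels and roles. The most abundant was a 968 nt circle of Unc79, which encodes a part of the NALCN sodium leak channel complex that sets the resting potential of neurons (chr6:126864143-126894194, plus strand). It had 2755, 2953 and 2969 RPM in the CFA libraries and 2803, 2639 and 3114 RPM in the saline libraries, a CV of 0.0597. Unc79 gave 2 more members with the same start, 690 nt and 597 nt long, at 496 and 246 RPM. The first of these 2 had 522, 500.3 and 483 RPM in the CFA libraries and 512, 403 and 557 RPM in the saline libraries, and in all 3 circles the 2 groups overlapped.

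Of the 74 genes on the list of chromatin and transcription genes 1, Zfp609, was matched by a member. A gene of that list was matched by 2 abundant circRNAs outside the set and by 10 of all circRNAs. The circle of Zfp609, a zinc finger protein whose circular transcript has been described in several tissues, was an 871 nt unspliced segment (chr8:71336875-71337745, minus strand) with 900.1, 793 and 933 RPM in the CFA libraries and 929, 1047 and 699 RPM in the saline libraries. It was also the 1 member found on the list of brain circRNA hosts, on which 3 abundant circRNAs outside the set and 9 of all circRNAs were found. Apart from Zfp609 and Map2, the matched genes described here are on none of the 17 lists, and no theme over them was tested. A 603 nt circle of Zmynd11, a reader of methylated histone H3, had 1325, 916 and 1524 RPM in the CFA libraries and 1433, 1489 and 1006 RPM in the saline libraries. A 1111 nt circle of Kat6b, a histone acetyltransferase, had 539, 844 and 825 RPM in the CFA libraries and 654, 753 and 695 RPM in the saline libraries. Circles of Lin54, a subunit of the DREAM cell cycle repressor complex, L3mbtl3, a reader of methylated lysine, and Asxl2, a Polycomb group protein, had means of 243, 137 and 112 RPM. In Zfp609 and Zmynd11 CFA replicate 2 and saline replicate 3 were the 2 lowest libraries, and in Kat6b CFA replicate 1 was.

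On the list of cytoskeleton and motor genes 1, Map2, was matched by a member. A gene of that list was matched by 0 abundant circRNAs outside the set and by 3 of all circRNAs. On the lists of kinases and phosphatases and of synaptic vesicle genes none was matched by a member. A 359 nt circle of Map2, the microtubule protein of dendrites, had 676, 829 and 873 RPM in the CFA libraries and 826, 1024 and 615 RPM in the saline libraries. Circles of Vps54, a subunit of the tether that returns vesicles from endosomes to the Golgi (634 RPM), Dennd1b, an activator of Rab GTPases (1044 RPM), Syt14, a synaptotagmin (419.9 RPM), and Snx25, a sorting nexin (152 RPM), had CVs between 0.113 and 0.223. Snrk, a kinase related to AMPK, gave the second highest of the matched circles, 946 nt long, with 2509.9, 1894 and 2684 RPM in the CFA libraries and 2449, 2721 and 2089 RPM in the saline libraries. Shoc2, a scaffold of RAS to RAF signalling, gave one of 196 RPM. Coq3, a methyltransferase of coenzyme Q synthesis, gave 2 members, of 1488 and 729 RPM, and both were lowest in CFA replicate 2 and saline replicate 3. St3gal5, which makes the ganglioside GM3, gave one of 379 RPM at a CV of 0.0990. Strbp, which encodes a protein that binds double-stranded RNA, gave 3, and the leading one had 1458, 1194 and 1102 RPM in the CFA libraries and 1347, 972 and 1702 RPM in the saline libraries. Over the 36 matched members the median CV was 0.194, and the CFA over saline log2 fold changes ran from -0.34 to 0.46. Of the 17 gene lists, 14 found no member by this match, those of ion channels, synaptic scaffolds, inflammation and pain, and all cell type markers among them. Abundant circRNAs outside the set were matched on the lists of ion channels (3) and synaptic scaffolds (2). With start matches alone this says nothing about hosts on those lists.

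Binding sites for miRNAs were another subject of the study. A miRNA recognises targets mainly through its seed, bases 2 to 8, and matches to the reverse complement of the seeds of 15 miRNAs were counted around each circle. The planned list had 16, and miR-124-3p was not analysed here. The capitals mark the seed in the 3 mature sequences, from RefSeq, whose sites head the set.
rno-miR-7a-5p: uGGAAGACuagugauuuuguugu
rno-miR-103-3p: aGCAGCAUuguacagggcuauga
rno-miR-9a-5p: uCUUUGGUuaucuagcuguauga
Of the 1094 members, 36 (3.29%) had 2 or more matches to 1 of these miRNAs, against 4.09% of the other abundant circRNAs and 2.04% of all. When an A next to the seed match was required, 3 members met the count. Longer circles have more room for a match, so matches were also taken per 1000 nt. On that scale members were above all circRNAs for 7 of the 15 miRNAs and below for 8. For miR-7a-5p members had 0.102 matches, the other abundant circRNAs 0.112 and all circRNAs 0.0913. For miR-103-3p the values were 0.168, 0.129 and 0.146 in the same order, and for miR-9a-5p 0.151, 0.115 and 0.143. They were 0.0615, 0.0458 and 0.0441 for miR-21-5p, a miRNA of inflamed tissue, and 0.0800, 0.0860 and 0.0891 for miR-146a-5p, a brake on innate immune signalling. Members were below both for miR-34a-5p, with 0.0846, 0.120 and 0.115, and for miR-138-5p, with 0.129, 0.172 and 0.157. The sense sequence was searched on 1 strand.

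Of the 5 members with 3 or more matches to 1 miRNA, the leading one was novel_circ_0015494, a 623 nt circle from chr18:71053204-71104420, plus strand, with 4 matches to the seed of miR-7a-5p, a neuronal miRNA. The matches are printed with 11 nt on either side, the match GTCTTCC in capitals. Each position is that of the first base in capitals, counted from 1 at the start of the circle.
novel_circ_0015494 from position 98: cgctaactaagGTCTTCCttgctagaacc
novel_circ_0015494 from position 401: cagcaatgattGTCTTCCtttcctgtcag
novel_circ_0015494 from position 480: gcaaggtccatGTCTTCCctacaccagca
novel_circ_0015494 from position 563: ccggaacccatGTCTTCCctcagcagtcg
The circle had 114, 92.1 and 168 RPM in the CFA libraries and 166, 128 and 109 RPM in the saline libraries. The 757 nt novel_circ_0031832, from chr4:27509136-27524886, plus strand, had 3 matches to miR-103-3p, ATGCTGC in capitals.
novel_circ_0031832 from position 240: tccattacactATGCTGCtagacatggaa
novel_circ_0031832 from position 540: accccttcactATGCTGCagcctcaggga
novel_circ_0031832 from position 735: agaagctgagtATGCTGCactggacaagc
It had 967, 873 and 1193 RPM in the CFA libraries and 946, 874 and 981 RPM in the saline libraries, a CV of 0.121. The Kat6b circle named above had 3 matches to miR-9a-5p. The 7 letters GTCTTCC were found in 3.66% of all circRNAs, ATGCTGC in 5.77% and ACCAAAG, the match of miR-9a-5p, in 5.70%. A match is a run of letters and no measure of binding.

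The central question of the study, which circRNAs differ after joint inflammation, is limited in the stable set by the rule itself. With 3 rats per group, a CV of 0.30 allows a difference between the group means of at most 1.75-fold, a log2 difference of 0.81. In edgeR's quasi-likelihood test over 22426 circRNAs, 0 of the 1094 members passed at an adjusted p of 0.05 (0.125% of all tested did), 3 had an unadjusted p below 0.05 (2.68% of all tested), and DESeq2 called 0 with 5 below 0.05. Nothing is read from these counts, since the rule used the contrast. The log2 fold changes of members had a median of -0.06 (quartiles -0.20 and 0.09), against -0.05 (-0.68 and 0.55) over all tested, and 97.7% lay within 0.5 of 0, against 43.4%. All RPM of CFA exceeded all of saline in 23 members, 2.10% of them, beside 3.21% of all circRNAs tested. All were below in 41 members, 3.75% of them, beside 3.42% of all tested.

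The members at the ends of this range were of modest level. The highest log2 fold change, 0.59 ± 0.37 (SE), was that of novel_circ_0007172, a 555 nt circle from chr13:95098506-95128782, minus strand, with 199.5, 206 and 156 RPM in the CFA libraries and 99.4, 102 and 158 RPM in the saline libraries. Saline replicate 3 reached the CFA range there. The next, novel_circ_0018081, 372 nt from chr1:161928871-161932898, plus strand, had 285, 369.9 and 308 RPM in the CFA libraries and 199, 151 and 276 RPM in the saline libraries, a log2 fold change of 0.58 ± 0.33 without overlap of the groups. Its log2 fold change was 0.42 without saline replicate 2 and 0.88 without saline replicate 3. That of the first circle was 0.44 without saline replicate 1 and 0.88 without saline replicate 3. The third, novel_circ_0044584 (337 nt, chr8:72138878-72148728, plus strand), had 349, 325 and 318 RPM in the CFA libraries and 288, 185 and 215 RPM in the saline libraries, a log2 fold change of 0.51. At the other end, novel_circ_0036590, a 1267 nt circle from chr6:104895383-104907136, minus strand, had 94.4, 90.5 and 107 RPM in the CFA libraries and 160.4, 158 and 175 RPM in the saline libraries, a log2 fold change of -0.79 ± 0.38. It was followed by novel_circ_0039627 (406 nt, chr6:96876609-96878279, plus strand) with 183, 183 and 129.5 RPM in the CFA libraries and 282, 255 and 216 RPM in the saline libraries, and by novel_circ_0015594 (344 nt, chr18:74311274-74313999, plus strand) with 116, 101.3 and 103 RPM in the CFA libraries and 148, 166 and 162 RPM in the saline libraries. Their log2 fold changes were -0.64 and -0.61, and the groups did not overlap in these 3. The limit on the CV bounds these differences, so they are given without a test.

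The other circRNAs at the member loci were not picked for small differences between libraries, and those of at least 100 RPM are there because they failed the limits. Of 4989 such neighbours with at least 10 counts, 6 were higher and 3 lower in CFA by the edgeR quasi-likelihood test after Benjamini-Hochberg adjustment, 0.180% of them beside 0.125% of all tested. Their median log2 fold change of -0.05 was that of all circRNAs tested. DESeq2 called 1 neighbour, which was none of the 9 that edgeR called. Without saline replicate 1 edgeR called 2, of which 1 was among the 9, and with filterByExpr it called 0 (37 at an unadjusted p below 0.05). As a share of circRNA reads, neighbours made up 14.8%, 15.2% and 14.4% in the CFA libraries and 14.3%, 14.8% and 14.8% in the saline libraries. The means were 14.8 ± 0.396% and 14.6 ± 0.275% (n = 3 rats, SD), the groups overlapped, and without CFA replicate 2 the difference changed sign. The members' reads, which the rule held even, are part of the total, so this share is given without a test. Over the 743 member loci that had neighbours, the median locus gave members 78.4%, 78.6% and 79.0% of its reads in the CFA libraries and 79.9%, 79.3% and 78.9% in the saline libraries. The groups overlapped, and since this share holds the members' own reads it is given without a test.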

How the data were processed

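Per the labels' protocols, thalamus RNA was bound to poly-T beads, and the random-primed libraries were amplified by PCR, without molecular identifiers named. The submitters' processing notes list DESeq2 1.20.0, featureCounts 1.5.0-p3, HISAT2 2.0.5 and StringTie 1.3.3b with no roles. The sources used here do not give the circRNA caller or the build. The deposited table holds, per the file headers, a raw read count per circRNA and library, which was used throughout. It also holds values that the authors headed TPM and that are RPM, since 1 read has the same worth for every circRNA of a library; the RPM in the text come from counts over column sums. The lowest count above 0 was 2, so a listed 0 may be 1 read. The deposited sequence file gives positions (starts counted from 0 had 1 added), spliced sequences and junctions, and 44 identifiers listed there 2 times were read from the first record.

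The members, the lists and the tests were chosen with earlier results of these data known. Groups came from the sample labels, and the series describes 6 separate rats. In the table's header, CFA replicate 3 carries a letter of its own, with no meaning given. Tests used edgeR 4.0.16 in R 4.3.3 (TMM, robust quasi-likelihood fit, no covariate, at least 10 counts over 6 libraries, Benjamini-Hochberg, threshold 0.05), with DESeq2 1.42.0 as an alternative. The edgeR fit alone was also run on simulated counts, with changes placed only in circRNAs of at least 100 RPM. Its outcome there is not given here. An SE is the size of the log2 value divided by the square root of F, an approximation. Shares per library are given without a test. The counting CV is the Poisson value at the library depths, and covers counting error only. A planned match of circles to rat proteins was not run, and matches to the first 50 bases of RefSeq transcripts (GRCr8, at least 30 bases, 1 named gene) took its place. The text names the 10 members of highest mean, the 5 of lowest CV, the 3 highest and 3 lowest log2 fold changes, 2 circRNAs on either side of each limit, the 3 loci richest in members and the 3 members with most seed matches to 1 miRNA. Alternatives were other limits, scalings, filters and tools, the replicate block and leaving out each library.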

Additional observations from a re-analysis of the deposited data

How the results depend on the processing

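The set held 544 circRNAs at a CV limit of 0.20 and 1419 at 0.40, 619 at a mean of at least 200 RPM and 1640 at 50 RPM, and 1069 to 1170 when 1 library was left out. Calls over all circRNAs were 28 in edgeR, 4 in DESeq2, 0 with filterByExpr (130 at an unadjusted p below 0.05, DESeq2 379), and 15 to 40 with 1 library left out, the fewest without saline replicate 1. Calls among members were 0 in each of these fits. Among their neighbours DESeq2 called 1, which the main edgeR fit did not call, filterByExpr gave 0, and leaving out 1 library gave 2 to 12. The cause was not tested. A replicate block gave 45 calls, 0 among members and 13 among neighbours. The numbers gave no sign of pairing: same-numbered libraries deviated with r of 0.03, -0.16 and -0.19, and 2 of 6 libraries correlated best with their own number. The share of neighbours (CFA minus saline, 0.164 percentage points) was -0.0388 to 0.357 with 1 library left out and, as log2 CPM with TMM factors, -0.0148. The members' share of locus reads was -0.689 points, -0.898 to -0.429 with 1 library left out, and 0.168 with members at a CV of at most 0.20. Read in a left-out library, a mean of 74.7% of chosen circRNAs lay within 30% of the others, 55.8% within 20% and 93.0% within 50%, each above the share of variable circRNAs in 6 of 6 libraries. With 8 bases in place of 7, 3 members had 2 or more miRNA matches in place of 36. Start matches were 35 at 40 bases, and the median neighbour CV was 0.216 to 0.263 under its alternatives. The log2 fold change of novel_circ_0018081, 0.58, was 0.42 without saline replicate 2 and 0.88 without saline replicate 3. The planned protein match was not run.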

Other observations

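Abundant circRNAs outside the set show what the evenness of members is set against. The 1099 nt unspliced segment novel_circ_0030037 (chr3:94396940-94398038, minus strand) had 0, 2601 and 2871 RPM in the CFA libraries and 3178, 4658 and 2684 RPM in the saline libraries, so it was 24th by mean RPM while listed at 0 in 1 rat. The 408 nt unspliced novel_circ_0041236 (chr7:52745151-52745558, minus strand) had 4406, 4305 and 2104 RPM in the CFA libraries and 2423, 2733 and 5284 RPM in the saline libraries. The 437 nt novel_circ_0003215 (chr11:34612627-34614139, plus strand) had 2038, 3889 and 2634 RPM in the CFA libraries and 2315, 4157 and 4991 RPM in the saline libraries, at a locus of 49 circRNAs. With novel_circ_0024921 these are the 4 most abundant circRNAs outside the set.

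Members lay on chromosomes 1 to 20, X and Y. They made up 49.5% of abundant circRNAs on chromosome 7 and 76.8% on chromosome 11, the lowest and the highest share among chromosomes 1 to 20 and X, and 2 of 2 on Y. Between libraries, log2 RPM of members correlated at 0.922 to 0.956 within a group and at 0.928 to 0.955 between groups (Pearson's r across circRNAs, which are not independent replicates), a closeness that the CV limit imposes.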
